A study of Mus musculus with 11 samples.

Results

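The peaks of p65 in the mouse tumour line M00002 were set against H3K27ac of the same line. p65 is the protein made from Rela. Peaks were taken on chromosomes 1 to 19 and X, and those that overlap a peak of the IgG control of M00002 were removed from the p65 list and from both H3K27ac lists. This left 15076 of the 16253 deposited p65 peaks, among 158808 peaks in the 11 lists of the series. Each p65 peak was placed in 1 of 4 classes by overlap of at least 1 bp: H3K27ac of both antibodies, of ac4729 only, of ac647 only, or of none. The HA library was not used to choose or to class peaks.

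M00002 is a cell line grown from a mouse tumour that carries an HA-tagged fusion written CRfus1, taken here as the fusion of ZFTA and RELA that the series title names. The cells were cultured without treatment on Matrigel in neural basal medium with B27, N2, bFGF and EGF. Libraries of p65, H3K27ac with ac4729, H3K27ac with ac647, HA and IgG came from M00002, and libraries of HA, IgG, Cbp, p300 and Rpb1 (antibodies S2 and S5) came from a second line, M00001, with the same tagged fusion. CUT&RUN uses an antibody to bring a nuclease to its target, so that DNA around the target is released and sequenced. Every target had 1 library in M00002 and each line stands for 1 mouse, so no difference below has a replicate check. Intervals are 95% and cover counting error over peaks only.

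p65 is the main activating subunit of NF-kappaB. It is held in the cytoplasm by IkappaB proteins, enters the nucleus after inflammatory signals and binds kappaB sites, where it recruits the acetyltransferases Cbp and p300. Those enzymes place H3K27ac, which marks promoters and enhancers in use. In supratentorial ependymoma the fusion joins most of RELA to ZFTA and is nuclear without a signal, so an antibody to p65 can see the fusion as well as p65 itself.

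The stretches shown here are the bases within 60 bp of the p65 summit at starts of 8 NF-kappaB and antigen presentation genes, cut at the RefSeq transcript start (GRCm38.p6, the assembly behind mm10). They show what lay under p65 in 3 of the 4 H3K27ac classes, with no site of ac647 only among them. They read 5′ to 3′ toward the gene, and capitals mark matches, on either strand, to a wide form of the kappaB site of 10 bases that opens with GGG and ends with CC, with any base between. The first 4 lay in H3K27ac of both antibodies, the next 2 in ac4729 only and the last 2 in none.
Nfkbia: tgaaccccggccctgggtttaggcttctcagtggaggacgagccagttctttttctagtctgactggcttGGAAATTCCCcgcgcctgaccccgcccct
Nfkb2: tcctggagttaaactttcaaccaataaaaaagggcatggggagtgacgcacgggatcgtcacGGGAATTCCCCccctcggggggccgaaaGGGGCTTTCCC
Cxcl2: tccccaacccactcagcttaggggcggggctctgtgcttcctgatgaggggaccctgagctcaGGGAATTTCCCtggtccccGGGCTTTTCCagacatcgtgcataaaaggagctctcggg
Irf1: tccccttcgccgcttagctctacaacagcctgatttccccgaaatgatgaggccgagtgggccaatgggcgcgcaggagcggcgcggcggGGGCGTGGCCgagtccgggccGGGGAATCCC
Cxcl1: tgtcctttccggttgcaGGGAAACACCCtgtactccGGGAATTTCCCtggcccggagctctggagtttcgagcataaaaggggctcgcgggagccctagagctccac
B2m: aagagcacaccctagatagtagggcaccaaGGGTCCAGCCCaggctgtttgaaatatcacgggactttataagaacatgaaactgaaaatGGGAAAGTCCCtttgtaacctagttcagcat
Cyld: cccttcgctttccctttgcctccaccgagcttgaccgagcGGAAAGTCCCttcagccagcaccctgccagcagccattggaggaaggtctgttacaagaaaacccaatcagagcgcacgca
Cxcl10: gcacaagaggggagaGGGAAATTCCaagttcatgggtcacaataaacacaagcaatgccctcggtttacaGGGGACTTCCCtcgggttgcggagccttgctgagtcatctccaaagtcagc

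Nfkbia, which encodes the inhibitor IkappaB-alpha, is shown at chr12:55492648-55492746, minus strand, and the p65 fold enrichment there was 9.68. Fold enrichment is the authors' value at the summit over the peak caller's background and was compared within the p65 list only. Nfkb2, which encodes a subunit of NF-kappaB, is shown at a start inside the gene (chr19:46304636-46304736, plus strand, fold 12.8). The chemokine gene Cxcl2 is at chr5:90903739-90903859, plus strand (fold 11.1), and Irf1, an interferon response regulator, at chr11:53769890-53770010, plus strand (fold 13.9). In ac4729 only were the chemokine gene Cxcl1 (chr5:90891138-90891244, plus strand, fold 12.3) and B2m, the light chain of MHC class I (chr2:122147470-122147590, plus strand, fold 6.81). In none were Cyld, a deubiquitinase that restrains NF-kappaB (chr8:88696833-88696953, plus strand, fold 17.8), and the chemokine gene Cxcl10 (chr5:92348943-92349063, minus strand, fold 9.31). The strongest of these 8 sites thus lay outside H3K27ac peaks, and all 8 held the wide motif because they were picked to show it. Of all 30 such sites at starts of genes of the NF-kappaB, MHC class I and AP-1 lists, 19 held it and 11 did not, the latter including Tnf, Il6, Csf1, Rela, H2-D1, Jun, Map3k14 and Traf3. A match had to lie wholly inside the stretch, so a motif cut by its edge or lying beyond it was not counted.

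Across all starts the motif was common. The promoter table held 21019 windows of 300 bp for 17251 of the 21627 protein-coding genes, none on chromosome 18, and 1802 windows of 1658 genes contained a p65 summit. The wide kappaB motif, read on both strands, was present in 83.9% (82.1 to 85.5) of windows with a p65 summit, in 55.1% (54.4 to 55.8) of those without and in 57.6% of all windows. Windows with p65 also had more G and C, with a median of 64.0% against 55.7%. Within the 3 equal classes of GC content the shares with and without p65 were 53.2% and 28.8%, 74.6% and 60.02%, and 91.1% and 80.7%, so the motif was more frequent with p65 in each class. By H3K27ac class the motif was in 80.3% of 314 windows of both, 82.4% of 756 of ac4729 only, 97.1% of 35 of ac647 only and 86.4% of 697 of none. The kappaB site of the immunoglobulin light chain enhancer, an exact sequence, was rare, in 12 of the 1802 windows (0.666%) and in 34 of all 21019 (0.162%). The AP-1 motif TGANTCA was in 4.38% of windows with p65 and 7.04% of all windows, and in 7.01% of those in both. Within the 3 classes of GC content its shares with and without p65 were 15.6% (8.32 to 25.6) and 11.7% (10.9 to 12.5), 6.18% (4.41 to 8.38) and 6.16% (5.59 to 6.78), and 2.61% (1.76 to 3.73) and 3.36% (2.91 to 3.85), so it was not less frequent with p65 in every class and the intervals overlapped in each. The GC box GGGCGG was in 80.9% of windows with p65 and 46.6% of all. CCAAT was in 54.4% and 38.5%, and in 41.1% of windows in both against 59.9% in ac4729 only. Motifs can overlap each other, and a match is a run of letters and not a shown binding site. No genome sequence was used, so distal peaks were not searched.

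p65 lay in H3K27ac about as often as not. Of the 15076 p65 peaks, 3948 (26.2%, 25.5 to 26.9) were in H3K27ac of both antibodies, 3034 (20.1%, 19.5 to 20.8) in ac4729 only, 397 (2.63%, 2.38 to 2.90) in ac647 only and 7697 (51.1%, 50.3 to 51.9) in none. Nearly all p65 peaks in ac647 were in ac4729 too, 90.9% (89.97 to 91.7) of 4345. Taken from the other side, 22.5% (21.98 to 22.9) of the 28849 ac4729 peaks and 26.6% (25.9 to 27.4) of the 15013 ac647 peaks held p65. IgG of M00001, a control from the other line, overlapped 0.101% of p65 peaks in both and 0.117% in none. That list held only 1592 peaks, of which 25.3% overlapped IgG of M00002. Since p65 peaks at IgG of M00002 had already been removed, the low overlap is a weak check. The share in both rested on the peaks admitted. It was 64.3% among the 2000 p65 peaks of highest fold, where the share in none was 12.8%.

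Position relative to genes divided the p65 peaks by antibody. A peak was called near when it lay within 1 kb of either end of a protein-coding gene, which held for 3176 peaks, and distal otherwise, which held for 11900. Only the outer ends of each gene counted, so a peak at a transcript start inside a gene could be called distal. Near peaks were in H3K27ac of some kind in 60.8% (59.1 to 62.5) of cases against 45.8% (44.9 to 46.7) of distal ones, a difference of 15.1 percentage points (13.1 to 17.0). That difference lay in ac4729 only, at 34.7% near and 16.2% distal (18.5 points, 16.7 to 20.3). H3K27ac of both antibodies was at 24.0% near and 26.8% distal (-2.74 points, -4.40 to -1.03), and with a 5 kb limit the shares were 26.1% and 26.2%. Among the 2000 strongest p65 peaks they were 46.9% and 70.2%.

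Within ac4729, ac647 was thus less often found at p65 near gene ends. Of the p65 peaks in ac4729, 40.9% (38.7 to 43.2) of 1865 near and 62.2% (60.9 to 63.6) of 5117 distal ones were also in ac647 (-21.3 points, -23.9 to -18.7). Whole ac4729 peaks, counted in place of p65 peaks, overlap ac647 anywhere along their width. Those with p65 held ac647 in 55.4% (53.1 to 57.7) near and 69.8% (68.5 to 71.2) distal. The ac4729 peaks without p65 had the same order with a smaller step, 24.5% (23.4 to 25.7) near and 29.5% (28.8 to 30.2) distal.

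At finer positions ac4729 only stayed higher near than distal, while the share in both was lowest between genes. At near peaks within 1 kb of a listed transcript start, 24.5% of 2272 were in both, 36.8% in ac4729 only and 36.5% in none. At the 904 other near peaks these shares were 22.9%, 29.4% and 45.9%. Starts were listed for 17273 of the 21627 protein-coding genes, so the other near peaks can include starts of unlisted genes. Distal peaks inside genes were in both in 31.7% (30.6 to 32.9) of 6203 cases, and those between genes in 21.3% (20.3 to 22.4) of 5697. Their shares in ac4729 only were 17.2% inside genes and 15.1% between genes. p65 peaks between genes had the highest share in none, 61.2% of 5697.

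**Figure D1:**
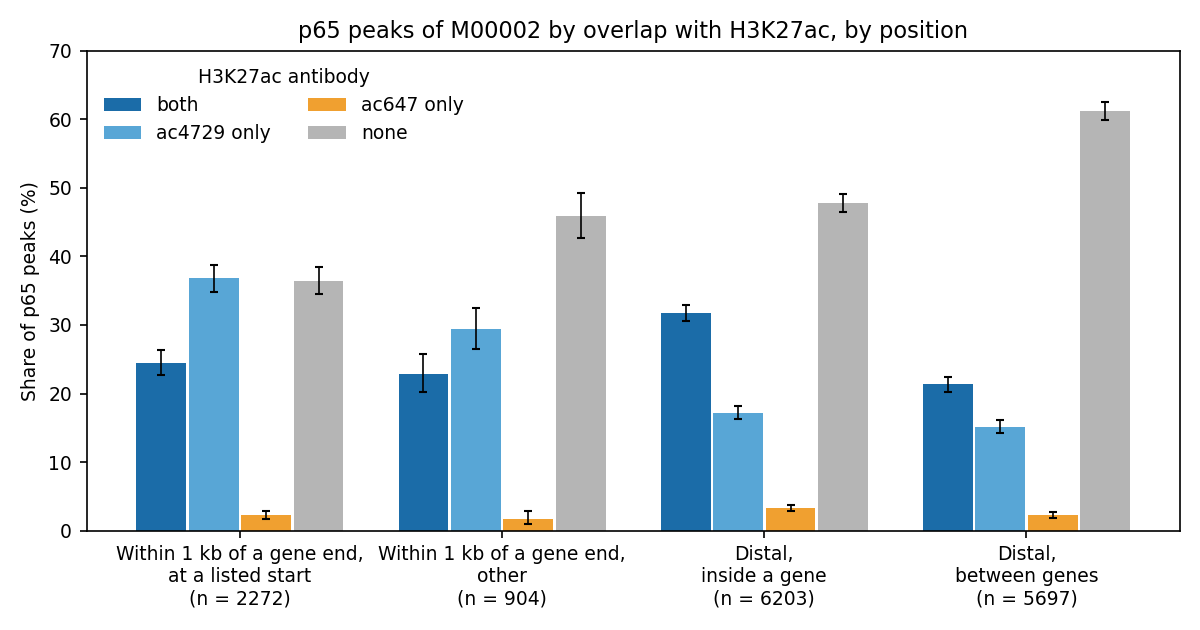
Share of p65 peaks of M00002 in each H3K27ac class (vertical axis, percent) at 4 kinds of position, with bars for both antibodies, ac4729 only, ac647 only and none, and 95% exact intervals as error bars. At listed starts ac4729 only reached 36.8% and between genes 15.1%, while both ranged from 21.3% to 31.7%. Starts of genes without a listed start can fall among the other near peaks.

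p65 enrichment rose with H3K27ac. The median p65 fold was 7.34 in both (quartiles 5.16 and 10.7), 5.59 in ac4729 only, 5.40 in ac647 only and 3.99 in none (3.19 and 4.98). A q-value below 0.01 was reached by 86.5% of p65 peaks in both and 36.8% of those in none. Over 5 equal classes of p65 fold, the share in both went from 5.70% (4.90 to 6.59) in the lowest to 57.9% (56.2 to 59.7) in the highest, and the share in none from 85.7% to 16.1%. Peaks in none were also narrower, with a median of 100 bp against 179 bp in both. The part of peak width in these shares was not tested.

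Near gene ends the rise was less steep. In the highest fold class 41.0% (37.5 to 44.6) of near and 63.8% (61.8 to 65.8) of distal p65 peaks were in both. In the lowest class the order was the other way, with 10.1% (7.07 to 13.9) near and 5.17% (4.36 to 6.07) distal. ac4729 only held 33.6% of the strongest near peaks and 19.5% of the strongest distal ones. The strongest near peaks were in none more often than the strongest distal ones, at 23.1% (20.2 to 26.2) and 13.7% (12.3 to 15.2).

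**Figure D2:**
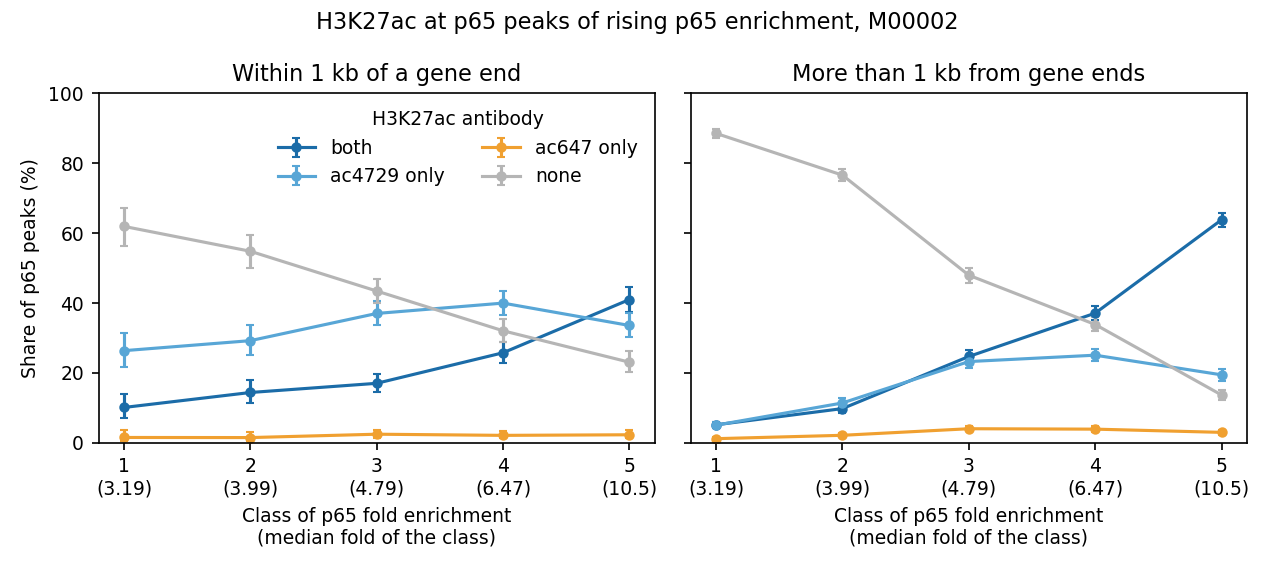
Share of p65 peaks in each H3K27ac class (vertical axis, percent, 95% exact intervals) over 5 equal classes of p65 fold enrichment (horizontal axis, median fold of the class in brackets), near gene ends on the left and distal on the right. The line for both antibodies ends at 41.0% near and 63.8% distal.

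The strongest near peaks in both lay at genes of several functions. Sik1, a salt-inducible kinase, had a p65 fold of 27.7 (chromosome 17, 31843992 to 31844230) with H3K27ac folds of 3.34 for ac4729 and 5.99 for ac647. Sec61a1, the channel of the endoplasmic reticulum translocon, had 25.6 (chromosome 6, 88518898 to 88519128), with 8.39 and 10.4. Rsph9, a radial spoke protein of motile cilia, had 25.6. Syvn1, a ubiquitin ligase of endoplasmic reticulum quality control, had 25.02, and Itga9, an integrin subunit, 24.1. The strongest distal peak in both lay inside Capzb, an actin capping protein subunit, with a p65 fold of 58.6 (chromosome 4, 139206822 to 139206961), 13923 bp from the nearest gene end. Next were sites inside Ttc28 (29.3), near Hmgb1, a chromatin protein (29.1, 25989 bp away), near the chemokine gene Ccl27a (28.3) and inside Tshz2 (28.2). All these folds were well above the median of 7.34 for the class, by the way they were chosen.

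In ac4729 only the near peaks were led by Ddost, a subunit of the oligosaccharyltransferase (p65 fold 25.3), Rbm42 (24.3), a site between Brpf1, a chromatin reader, and Cpne9 (22.3), Zfp687 (21.4) and Azin1 (20.1). The ac4729 folds there were 4.86, 5.11, 3.91, 5.76 and 4.09. The distal ones were led by sites inside Ntng2 (23.5), Cmip (23.0) and Igsf21 (22.4). In ac647 only the folds were lower, led near gene ends by the kinase gene Pkn2 (17.9), Tspan14 (13.8) and Zfp367 (13.0), and among distal peaks by sites inside Ppp2r2b (16.5), 153938 bp from Chst7 (15.2) and inside Mafg (14.3). At Pkn2 the p65 peak (chromosome 3, 142882004 to 142882232) and the ac647 peak (142881612 to 142882018) met only at their edges.

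Strong p65 without H3K27ac under the peak was found at gene ends as well. Pcbp3, an RNA-binding protein gene, had a p65 fold of 24.6 (chromosome 10, 76962001 to 76962229). Yy1, a zinc finger transcription factor, had 21.0, Zbtb18, a transcriptional repressor, 20.9, Tada2b with Ccdc96 18.5 and Cyld 17.8. Tada2b is an adaptor of a histone acetyltransferase complex. Among distal peaks in none, a 119 bp site 35243 bp from Pak3 on the X chromosome had the highest p65 fold of all, 108.6 by the file's value, and the HA fold there was 111.0. Sites near Btbd35f27 (23.8) and inside Lemd3 (20.9) came next, and the latter lay 86 bp from an IgG peak of M00002. All 40 peaks chosen this way, 5 per class and position, overlapped HA of M00002, and 35 overlapped HA of M00001. The 5 distal peaks in none overlapped HA of M00001 in 2 cases. Over all p65 peaks HA of M00002 was at 64.1%. In the highest of the 5 fold classes it was at 99.0% to 99.93% of peaks in both and none, near and distal. HA of M00001 was at 68.3% of distal peaks in both and 29.4% of those in none of that fold class.

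Peaks in none were seldom placed in a gap between H3K27ac peaks. Of the 1244 near ones, 6.91% (5.57 to 8.47) had an H3K27ac peak within 1 kb on both sides and 32.9% on 1 side, so 60.2% had none within 1 kb. Of the 6453 distal ones, 1.61% (1.32 to 1.95) were flanked on both sides, 10.7% on 1 side, and 87.7% had none. When H3K27ac peaks of an antibody were joined over gaps of up to 500 bp, the share of p65 in none was 50.4%.

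Inside acetylated domains of at least 500 bp p65 lay toward the centre. A domain was the merger of overlapping peaks of the antibodies that held both. There were 10290, with a median width of 862 bp, and 4588 p65 summits fell inside them. The distance of the summit from the centre, as a percent of the way to the edge, had a median of 29.5 (quartiles 14.1 and 51.5), where even placement would give 50. By domain width the median was 52.2 (24.5 and 74.4) for the 209 summits in domains under 500 bp, 31.8 from 500 to 1000 bp, 25.8 from 1000 to 1500 bp and 30.2 above that. Distal p65 summits had a median of 27.6 and near ones 37.2, and 7.06% of near summits lay in the outermost 10 percent against 3.06% of distal ones. Sec61a1 and Rsph9 are examples of near summits at the edge, at 91.9 and 87.4, and the Capzb summit lay almost at the centre, at 4.81. The summits of H3K27ac themselves had medians of 33.5 for ac4729 and 36.2 for ac647. HA summits of M00002 gave 31.6. With IgG peaks kept in all lists, p65 gave 30.4 and IgG 38.0, the latter over 458 summits, so a lean to the centre was also present in the control.

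The summits of p65 did not sit on those of H3K27ac. For p65 peaks in both, the nearest ac4729 summit was at a median of 177 bp (quartiles 110 and 265), and the nearest ac647 summit at 176 bp (109 and 257). Only 9.57% were within 50 bp of an ac4729 summit, while 18.3% were at 150 to 200 bp. For comparison, ac647 summits of peaks in ac4729 lay at a median of 129 bp from the ac4729 summit, with 25.6% within 50 bp and 8.84% at 150 to 200 bp. Near and distal p65 peaks in both had medians of 183 and 175 bp. HA peaks in both gave 178 bp.

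**Figure D3:**
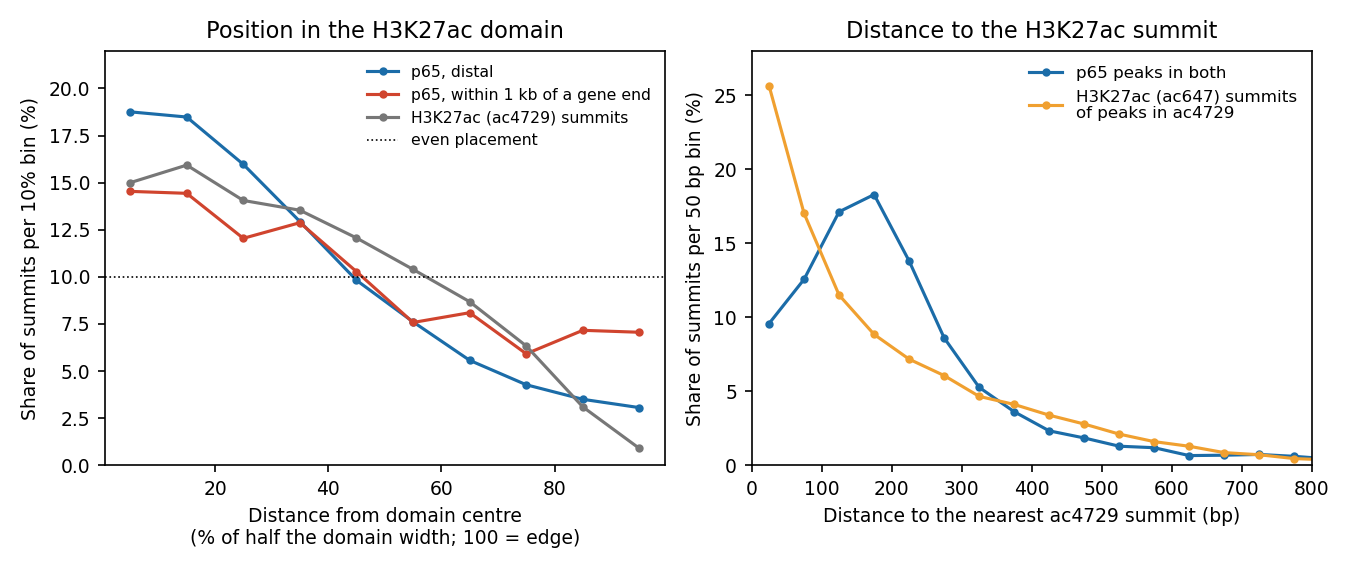
Left, share of summits (vertical axis, percent per bin of 10) against distance from the centre of the H3K27ac domain (horizontal axis, 0 centre, 100 edge) for distal p65, near p65 and ac4729 summits, with a dotted line at even placement. Right, share of summits per 50 bp (vertical axis, percent) against distance to the nearest ac4729 summit (bp), where p65 peaks in both are most frequent at 150 to 200 bp (18.3%) and ac647 summits below 50 bp (25.6%).

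Wider domains held p65 more often. p65 overlapped 42.5% (41.6 to 43.5) of the 10290 domains, 46.8% of near ones and 41.3% of distal ones. Domains with p65 had a median width of 1042 bp and those without 751 bp. The share went from 18.7% of domains under 500 bp to 74.5% of those of at least 1500 bp. Per kb of domain the number of p65 summits went from 0.334 to 0.534. Of the domains, 3659 held 1 p65 summit, 434 held 2, 19 held 3 and 1 held 4. The last was 2476 bp wide and lay at Btbd19 (chromosome 4, 117124805 to 117127280), with p65 folds from 4.02 to 14.4. The widest domains with 3 lay inside or near Actn1, which encodes an actin crosslinker (3477 bp), Txnrd2, a mitochondrial thioredoxin reductase (2956 bp), and Usp2 (2634 bp). One more lay 181304 bp from Hes1, a Notch target and neural progenitor factor (2893 bp, p65 folds from 7.82 to 13.5).

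The other libraries gave readouts that the classes did not use. HA of M00002 overlapped 9659 of the 15076 p65 peaks (64.1%). It was at 93.3% (92.5 to 94.1) of p65 peaks in both, 86.8% (85.6 to 88.0) in ac4729 only, 79.3% (75.02 to 83.2) in ac647 only and 39.3% (38.2 to 40.4) in none. The class none differed by position, with HA at 69.5% (66.8 to 72.0) near and 33.5% (32.3 to 34.7) distal. Turned around, p65 peaks without HA were in both in 4.86% (4.30 to 5.46) of 5417 cases and in none in 86.2%, against 38.2% (37.2 to 39.1) and 31.3% with HA. p65 fold moved with HA. Among distal p65 peaks of the lowest fold class, HA was at 60.4% (51.8 to 68.6) of those in both and 7.89% (6.84 to 9.05) of those in none, and in the highest class at 99.93% and 99.0%.

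HA of the other line, M00001, followed the same order over all positions between both and none, at 51.1% (49.6 to 52.7) and 8.94% (8.31 to 9.60), with ac4729 only at 31.8% and ac647 only at 33.2%. The coactivators Cbp and p300, measured in M00001, were found at p65 sites of M00002 less often. p300 was at 17.7% (16.5 to 18.9) of p65 peaks in both and 3.62% (3.22 to 4.07) in none, and Cbp at 7.88% (7.06 to 8.76) and 1.83% (1.54 to 2.16). Among distal peaks p300 was at 16.3% in both, 6.88% in ac4729 only, 12.7% (9.33 to 16.8) in ac647 only and 1.67% in none. Among near peaks it was at 23.5% (20.5 to 26.6) in both and 13.7% (11.9 to 15.8) in none. The near difference changed with p65 fold. In the lowest fold class p300 was at 21.2% (8.98 to 38.9) of near peaks in both and 4.46% (2.06 to 8.29) in none. In the highest it was at 27.5% and 26.7% near, and at 20.0% and 5.56% distal. These are sites of 1 line read in another, and the lists differ in length.

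Near gene ends the share of p65 peaks with Rpb1 S2 was highest in ac4729 only. Rpb1 with S2, measured in M00001, was at 62.0% (58.4 to 65.4) of near p65 peaks in both, 76.0% (73.3 to 78.4) in ac4729 only and 60.5% (57.7 to 63.2) in none. S5 was at 44.7% (41.1 to 48.3), 50.7% (47.7 to 53.7) and 37.5% (34.8 to 40.2). S5 was thus more frequent in both than in none, while the S2 intervals of both and none overlapped. In ac647 only, over 67 near peaks, S2 was at 64.2% (51.5 to 75.5) and S5 at 52.2% (39.7 to 64.6). These intervals overlapped those of ac4729 only. The order of both and none changed with p65 fold. From the lowest to the highest of the 5 fold classes, S2 was at 60.6%, 62.7%, 63.0%, 59.5% and 63.1% of near peaks in both and at 34.2%, 49.02%, 63.6%, 74.1% and 80.6% of those in none. In the lowest class the intervals were 42.1 to 77.1 for both (33 peaks) and 27.6 to 41.1 for none (202 peaks), and in the highest 57.6 to 68.4 (320) and 74.0 to 86.1 (180). S5 went from 36.4% to 48.1% in both and from 16.8% to 56.7% in none. Among distal peaks S2 was at 30.7% (29.1 to 32.3) in both, 19.9% in ac4729 only and 25.8% (21.1 to 30.8) in ac647 only. It was lowest in none, at 5.58% (5.03 to 6.17). S5 in these classes was at 15.6%, 9.21%, 15.2% (11.5 to 19.5) and 2.63%.

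**Figure D4:**
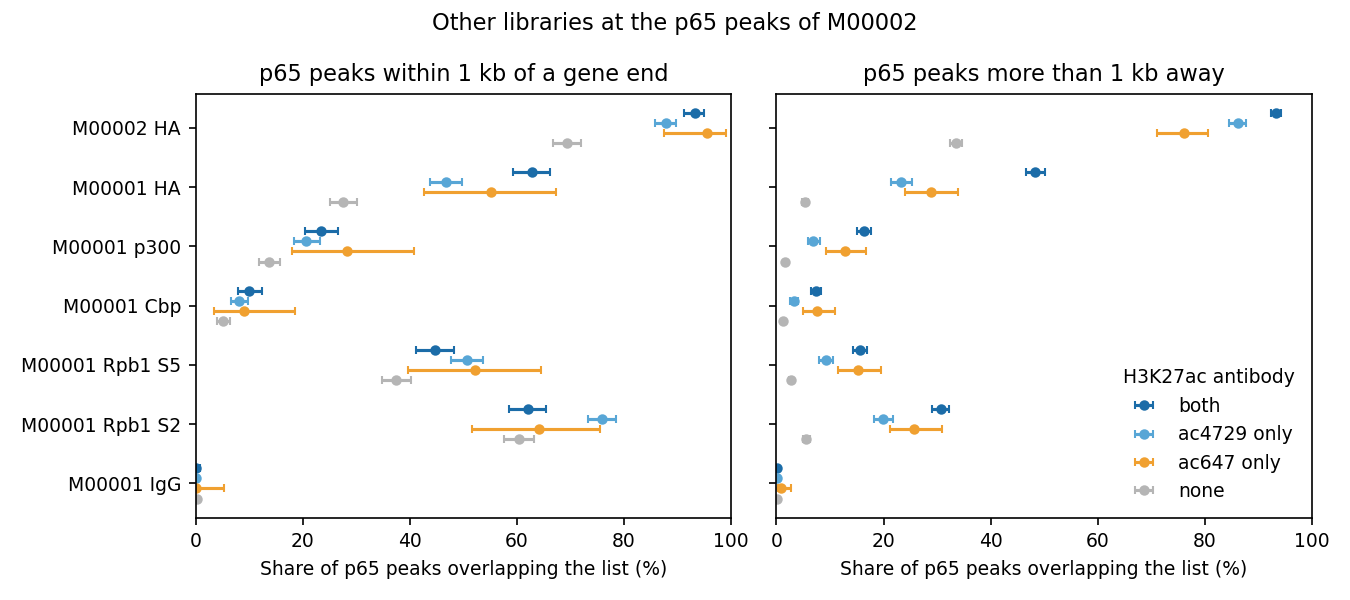
Share of p65 peaks of M00002 (horizontal axis, percent, 95% exact intervals) that overlap each other library (rows), by H3K27ac class, near gene ends on the left and distal on the right. For near peaks S2 is lower in both (62.0%) than in ac4729 only (76.0%), and for distal peaks every library except IgG is lowest in none.

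At the level of genes, 3295 of 21627 protein-coding genes (15.2%) had a p65 peak within 1 kb of an end, 424 of them more than 1 peak. Taking the highest class among a gene's near peaks, 806 genes (3.73%) had p65 in both, 1250 (5.78%) in H3K27ac of a single antibody and 1239 (5.73%) in none. The count of 806 was 345 with a −log10 q of at least 5 in all 3 lists, 288 with the 2000 strongest p65 peaks and 1567 with a 5 kb limit. Where ac4729 and ac647 peaks were both present within 1 kb of a gene's ends, p65 was present in 52.3% (50.4 to 54.3) of 2578 cases, where ac4729 alone was present in 26.3% (24.95 to 27.6) of 4377, and where H3K27ac was absent in 5.06% (4.71 to 5.43) of 14449. Peaks at neighbouring genes count for each of them.

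Of 23 NF-kappaB subunits and regulators 13 had near p65, 56.5% against the background of 15.2%. Among the subunits, p65 at Relb (fold 10.3) was in both, and the strongest peak at Rela (8.44), the gene of p65 itself, was in ac4729 only. Nfkb1, Nfkb2 and Rel had 0 peaks within 1 kb of an end, although Nfkb2 had p65 at the start inside the gene shown above. Among the IkappaB family, Nfkbia had 2 peaks, the stronger (9.70) in none and the other in both. Nfkbib (16.3, at a site shared with Sirt2) was in ac4729 only, and Nfkbie (12.7) and Nfkbid (4.68) were in none. Of the ubiquitin-editing feedback genes, Tnfaip3 (8.08) and Tnip1 (8.58) were in ac4729 only and Cyld (17.8) in none. Birc3 (11.2), a ubiquitin ligase of the pathway, was in both. A peak of IgG of M00002 lay within 1 kb of that gene as well. Map3k14 (12.1), the kinase NIK, was in none. Traf2 (3.65) was in ac4729 only and Traf3 (4.21) in none. In total 3 of the 13 were in both, 5 in a single antibody and 5 in none, close to the split of 806, 1250 and 1239 over all 3295 genes with near p65. At Cyld and Map3k14 the ends had ac4729 and ac647 peaks inside the 1 kb limit, but these did not overlap the p65 peak.

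Of 21 inflammatory targets 11 had near p65 (52.4%), 4 in both, 3 in a single antibody and 4 in none. Both held Irf1 (13.9), the cytokine genes Csf1 (12.8, 3 peaks) and Il6 (4.71) and the chemokine gene Cxcl2 (11.1). Icam1 (15.5), an adhesion protein, and Cxcl1 (12.3) were in ac4729 only, and the stress response gene Ier3 (6.35) in ac647 only. Gadd45b (10.2), Cxcl10 (9.31), Sod2 (7.42) and Tnf (7.42) were in none. The ends of Gadd45b had peaks of both antibodies and those of Sod2 had ac4729, but these did not overlap p65. Ccl2 and Ccl20 had H3K27ac of both antibodies at an end and 0 near p65 peaks. Of 13 genes of MHC class I presentation 7 had near p65 (53.8%, against 15.2% of all genes), all in H3K27ac. Those in both were Tapbp (11.5), a peptide loading factor, at a site shared with Zbtb22, and Tap1 and Psmb8 at a shared site (5.28). In ac4729 only were H2-D1 (13.7), H2-K1 (7.84), Psme2 (7.54) and B2m (6.81). Ends of 10 of the 13 genes had H3K27ac of any antibody, while 14449 of all 21627 protein-coding genes had no H3K27ac there. Of all 3295 genes with near p65, 1239 were in none. H2-D1 and H2-K1 belong to a family of near-identical genes, so their peaks are uncertain.

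AP-1 and immediate early factors had the highest share of the lists, 9 of 14 (64.3%), against 15.2% of all genes. Junb (16.2), Fosl1 (14.8, at a site shared with Ccdc85b), Egr1 (12.0) and Maff (4.08) were in both and Myc (6.83) in ac647 only. Jun (14.9), Atf3 (8.58), Mafk (6.17) and Fosl2 (3.58) were in none. The ends of Jun had peaks of both antibodies and those of Fosl2 had ac4729, but these did not overlap the p65 peak. Egr2 had no near p65, though p65 (5.01, in ac4729 only) lay at a start inside the gene. Housekeeping genes had 6 of 15, all in H3K27ac, led by Gapdh (14.3, at a site shared with Ncapd2), Eef1a1 (11.7) and Pgk1 (8.81). The ependymoma list had 5 of 18, Fgfr3 (11.8) and Relb in both and Sox9 (8.56), Rela and Epha2 (5.74) in ac4729 only. Sox9, Nes (5.57), an intermediate filament gene, and Vim (4.76) were the radial glia genes with p65 in ac4729 only. Id3 (4.38) and Gli3 (3.57) were in none, which makes 5 of 18. The ends of Gli3 had peaks of both antibodies that did not overlap the p65 peak.

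Markers of other cell types held near p65 at some genes, where the share over all protein-coding genes was 15.2%. Ependymal and multiciliated genes had near p65 at 6 of 15, of which 5 were in none: Rfx2 (6.71), Trp73 (5.36), Ccno (5.30), Gmnc (4.79) and Ccdc40 (3.93). The sixth, Foxj1 (10.4, at a site shared with Rnf157), the master regulator of motile cilia, was in ac4729 only. The ends of ependymal and multiciliated genes had H3K27ac of any antibody at 2 of 15 genes, Foxj1 and Gmnc. At Gmnc it did not overlap the p65 peak. Near p65 was found at 1 of 15 neuron genes (Tubb3, 5.33, in none) and 1 of 12 oligodendrocyte lineage genes (Sox10, 11.0, in ac4729 only). It was also found at 1 of 12 microglia and leukocyte genes (Tmem119, 10.7, in both) and 1 of 15 genes of other tissues (Apoa2, 19.6, in both). The Apoa2 peak was shared with Tomm40l and lay closer to the end of Tomm40l. H3K27ac of any antibody lay at ends of 0 of 15 neuron genes, 4 of 12 oligodendrocyte lineage genes, 2 of 12 microglia and leukocyte genes, 1 of 15 genes of other tissues, 10 of 18 radial glia genes and 10 of 15 housekeeping genes. Of all 21627 protein-coding genes, 14449 had no H3K27ac at their ends. The lists are short and were not tested, so a count of 1 gene is not read as a lack of p65. Of all 3295 genes with near p65, 1239 were in none.

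**Figure D5:**
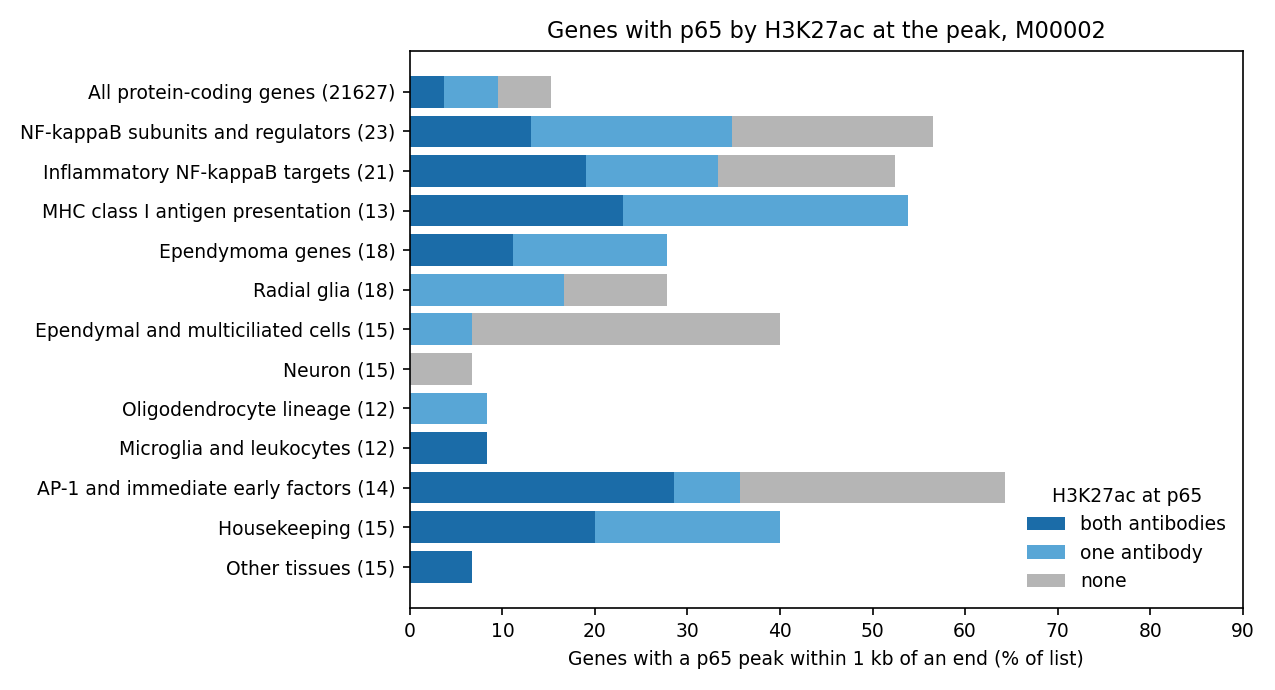
Share of each gene list with a p65 peak within 1 kb of a gene end (horizontal axis, percent of the list), stacked by H3K27ac class of the gene's near p65 peaks, with list sizes in brackets and all protein-coding genes on top (15.2%). AP-1 and immediate early factors reach 64.3%, and 5 of the 6 ependymal genes with p65 are in none.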

How the data were processed

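CUT&RUN peak lists of 11 libraries were used, 1 per sample and not pooled, so peaks were called per library. The genome was mm10 and the tools were MACS2, Bowtie2 2.3.5.1, deepTools, Trim Galore and FastQC, per the submitters' processing notes, which give no settings here. Which control, if any, entered peak calling is not stated. Each line of the deposited lists holds a score, the ratio (fold enrichment) at the summit, −log10 of p and q, and the summit offset, read by the column order of MACS2. No deposited −log10 p was below 3. The name of the p65 list carries a mark of 120 bp whose meaning is not given. Read depth is unknown.

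Overlaps, classes and distances were computed in Python 3.11.15 with numpy 2.4.6 and pandas 2.3.3, and were tested on simulated data. Intervals are exact Clopper-Pearson (scipy 1.17.1), for differences Newcombe. No p-value was computed, since peaks of 1 library are not replicates. Genes were 21627 protein-coding genes of GRCm38.p6 on the chromosomes used. All 184 genes of the 12 lists were among them. Named peaks were the 5 of highest p65 fold in each of 8 groups, the 5 domains with the most p65 summits, all members of the 2 NF-kappaB lists with near p65, and up to 4 of each other list; further list members with near p65 were added after their values were seen. The members and lists were chosen with earlier results of these data known. Removal of IgG from the H3K27ac lists as well follows the rule that chose the peaks.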

Additional observations from a re-analysis of the deposited data

How the results depend on the processing

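Of 57 values under 9 alternatives, 28 stayed within the 95% interval of the reported value, or for the count of genes within 1.5 times, and 29 did not. With −log10 q of at least 5 in all 3 lists, p65 was in both at 32.9%, in a single antibody at 27.2%, in none at 40.0%, distal in both at 36.4%, with 345 genes in both and a median summit offset of 25.1. With the 2000 p65 peaks of highest fold the values were 64.3% in both, 12.8% in none, 46.9% near and 70.2% distal in both, 288 genes and an offset of 24.3. With at least 50% of the p65 peak covered they were 20.5% in both, 23.8% single, 55.8% none, 16.8% near and 21.5% distal, and with the p65 summit inside the H3K27ac peak 20.5%, 23.9%, 55.7%, 17.0% and 21.4%. With IgG kept they were 27.4% in both, 49.6% in none and 28.2% distal in both, and with gaps of up to 500 bp joined 27.3% in both and 27.8% distal in both. Within 5 kb of gene ends 26.1% of near peaks were in both, at 1567 genes. The near share in both was below the distal share under all 9, by -0.142 points at the least (5 kb) and -23.3 at the most (2000 strongest). Removing IgG from the p65 list only, an alternative chosen after seeing the data, left 26.5% in both. No paired analysis was possible because every target had 1 library in M00002. Without read counts, peaks missed for depth cannot be told from sites without the target.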

Other observations

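On the X chromosome 15.7% (11.3 to 21.0) of 236 p65 peaks were in H3K27ac of both antibodies, below the range over the autosomes, which ran from 22.6% of 869 peaks on chromosome 8 to 32.7% (30.0 to 35.5) of 1171 on chromosome 11. A further 542 p65 peaks lay on sequences outside chromosomes 1 to 19 and X, and 635 overlapped IgG of M00002. Neither set enters the classes.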
